A study of Mus musculus with 12 samples.

Results

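The erythroid haem and globin genes are a group of 9 named mouse genes that red blood cell precursors use to make haemoglobin and the red cell membrane: Alas2, Hba-a1, Hba-a2, Ahsp, Slc4a1, Epb42, Gata1, Klf1 and Tfrc. They were chosen by name, by a rule that uses no measured value, though with earlier results of these data known. Of the 9 genes, 8 were matched to transcripts of the files, out of 23715 genes in all, and Ahsp, which encodes a chaperone of alpha globin, was not analysed here. RNA-seq had been done on the calvaria, the skull roof, of 12 C57BL/6 mice, which the labels call newborn and the study's methods give as parietal bone at postnatal day 2. The 4 groups held 3 mice each. They were control mice (labelled P-Ctrl, genotype WT in the labels and Med23 fl/fl in the study's text), their Med23MSC-/- littermates (P-KO, Med23 fl/fl with Prx1-Cre), WT mice (R-WT) and their Runx2+/- littermates (R-Het), which carry 1 mutated copy of Runx2 in every cell. Prx1-Cre is active largely in limb and craniofacial mesenchyme, a lineage that does not form blood, whereas the calvaria holds blood and marrow of haematopoietic origin. The labels name no pooling of mice.

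Red cells are made by erythroblasts, which build haem in the mitochondria and join it to alpha and beta globin chains. ALAS2 catalyses the first and rate-limiting step of haem synthesis in erythroid cells, the transferrin receptor TFRC brings in the iron, and SLC4A1 (band 3) and EPB42 (protein 4.2) belong to the red cell membrane. GATA1 and KLF1 are the transcription factors that switch these genes on, GATA1 through GATA motifs and KLF1 through CACCC-type motifs. Newborn bone contains circulating reticulocytes and, where marrow has formed, erythroblasts.

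The sequences just before the start sites of Alas2 and of the alpha globin genes are shown because these genes moved together most closely, and that of Tfrc because it did not follow them. RefSeq windows (GRCm38.p6) of 250 bases before the start were matched for 7 of the 8 members, all but Slc4a1. Capitals mark GATA words (the form AGATAA, the form TGATAA, the form AGATAG or the form TGATAG), the words of CACCC type (the form CCNCNCCC) and the CCAAT box, each searched on both strands, and overlapping words run together. Alas2 lies on the X chromosome, with the window at chrX:150547167-150547416 on the plus strand, Hba-a1 has its window at chr11:32283422-32283671 on the plus strand, and Tfrc has a first window at chr16:32608646-32608895 on the plus strand.
Alas2: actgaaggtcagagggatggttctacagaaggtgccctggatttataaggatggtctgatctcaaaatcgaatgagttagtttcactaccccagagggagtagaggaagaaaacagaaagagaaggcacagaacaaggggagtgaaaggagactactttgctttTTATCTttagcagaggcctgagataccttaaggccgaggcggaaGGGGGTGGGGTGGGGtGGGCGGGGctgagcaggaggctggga
Hba-a1: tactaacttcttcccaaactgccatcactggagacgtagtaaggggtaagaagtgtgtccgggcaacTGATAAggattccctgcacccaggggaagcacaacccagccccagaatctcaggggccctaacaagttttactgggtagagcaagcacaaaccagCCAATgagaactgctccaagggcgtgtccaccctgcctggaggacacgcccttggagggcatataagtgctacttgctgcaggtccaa
Tfrc: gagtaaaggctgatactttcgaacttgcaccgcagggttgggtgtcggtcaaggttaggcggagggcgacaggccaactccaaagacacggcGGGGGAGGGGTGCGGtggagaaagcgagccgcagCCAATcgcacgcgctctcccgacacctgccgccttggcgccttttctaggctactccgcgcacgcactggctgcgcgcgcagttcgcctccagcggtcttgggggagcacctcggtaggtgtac
The Alas2 window holds a GATA word on the minus strand 86 to 81 bases before the start and 4 CACCC-type words between 42 and 19 bases before it. The Hba-a1 window holds TGATAA 183 to 178 bases before the start and CCAAT 88 to 84 bases before it, with no CACCC-type word in these letters. The Hba-a2 window, shifted by a few bases, was identical to that of Hba-a1 over all 247 bases compared. GATA words were found in the windows of Alas2, Epb42, Hba-a1, Hba-a2 and Klf1 and in neither Gata1 nor Tfrc, against 26.5% of 32851 windows of all genes. CACCC-type words were found in Alas2, Gata1 and both Tfrc windows (45.9% of all windows), and CCAAT in Hba-a1, Hba-a2, Klf1 and 1 of the 2 Tfrc windows (33.8%). A match of letters is a description and does not show binding.

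The authors deposited values in FPKM (fragments mapped to a transcript, divided by its length and by the depth of the library), 1 per RefSeq transcript and mouse, and the values of a gene's transcripts were added up here. Depth was estimated from the smallest values at roughly 8000000 to 11900000 fragments per mouse. The deleted genes could not serve as a check of the labels at this level: Med23 ranged from 4.54 to 5.99 FPKM in control and from 4.89 to 5.74 in Med23MSC-/- mice, and Runx2 ranged from 27.3 to 37.7 in WT and from 30.4 to 35.7 in Runx2+/- mice. These values cover whole genes and not the deleted exons, so each genotype below means the libraries labelled so. Xist, which is expressed from the inactive X chromosome of females, was at 49.1 and 37.8 FPKM in control replicates 2 and 3 and at 42.4 FPKM in WT replicate 1, and at no more than 0.0663 FPKM in the other mice, so the sexes were uneven between the groups. Skeletal muscle genes varied as well, with a summed level of 1900 to 5614 FPKM in WT and 26.7 to 188 FPKM in Runx2+/- mice, and of 22.8 to 1375 FPKM in control and 596 to 4158 FPKM in Med23MSC-/- mice. The part that sex and muscle content play in the results below was not tested, other than in the low-Xist libraries described there.

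The members spanned several orders of magnitude within the same libraries. On the FPKM scale, which is per length, Hba-a1 was the highest, with a mean level of 4869 FPKM over the 12 mice, followed by Hba-a2 (3001 FPKM), Tfrc (37.7 FPKM), Alas2 (22.2 FPKM) and Slc4a1 (1.79 FPKM). This order held in 12 of 12 mice. Klf1 (0.295 FPKM), Epb42 (0.238 FPKM) and Gata1 (0.110 FPKM) stayed below 1 FPKM in every mouse. Klf1 exceeded Epb42 in only 7 of 12 mice, so these neighbours were not ordered. The 3 low genes rested on few fragments: an estimated 1.1 to 6.5 per mouse for Klf1, 3.3 to 24 for Epb42 and 0 to 4.2 for Gata1. The master regulators of the erythroid programme were thus near the limit of detection while its globin products ranked among the most abundant RNAs, with Hba-a1 between rank 16 and rank 118 of all genes in a mouse. Hba-a1 and Hba-a2 together made up 0.235% to 1.21% of the FPKM sum.

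**Figure D1:**
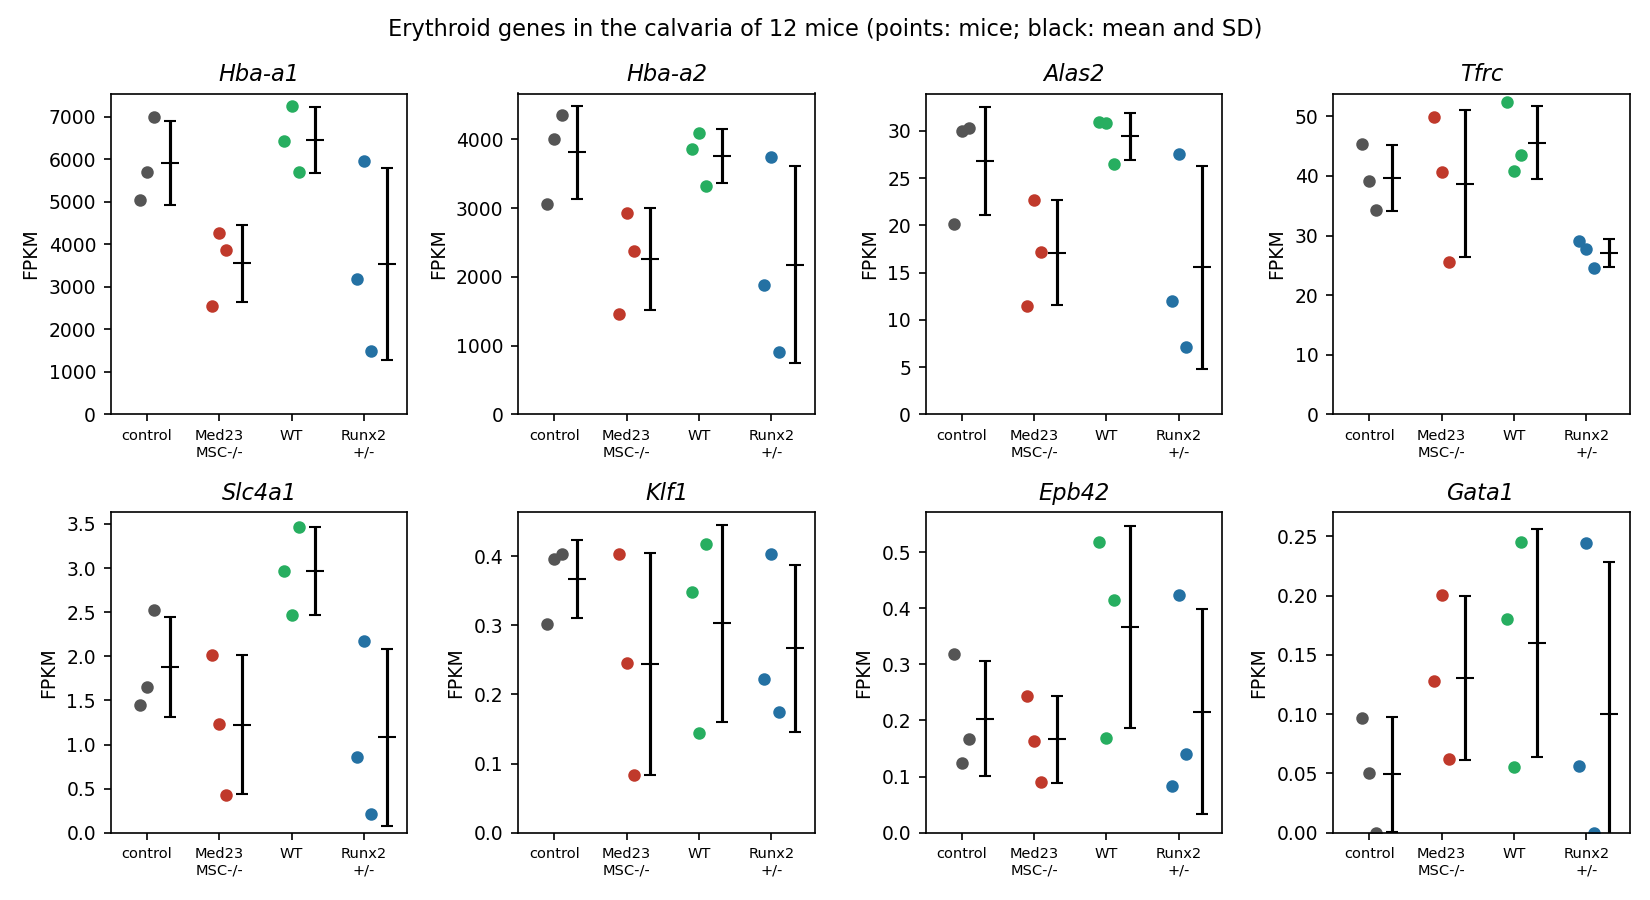
Level of the 8 matched members in FPKM (vertical axes from 0, a scale of its own for each gene) in the 4 groups of 3 mice, with 1 point per mouse and the mean ± SD in black (cut at 0). The 3 Med23MSC-/- mice lie below the 3 controls for Hba-a1 and Hba-a2, and Runx2+/- replicate 2 lies within the WT range for Hba-a1, Hba-a2 and Alas2.

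The alpha globin genes were lower in Med23MSC-/- calvaria than in every control. Hba-a1, which encodes adult alpha globin, was at 5046, 5701 and 6995 FPKM in the control mice and at 2540, 4269 and 3860 FPKM in the Med23MSC-/- mice. The groups did not overlap, and the Med23MSC-/- mean of 3556 ± 904 FPKM was 60.1% of the control mean of 5914 ± 992 FPKM (SD, n = 3 each). Hba-a2, the neighbouring copy on chromosome 11, was at 3065, 4005 and 4363 FPKM in the control mice and at 1463, 2934 and 2373 FPKM in the Med23MSC-/- mice. Again every Med23MSC-/- mouse was below every control, as were 7.68% of the 13059 genes tested. On the log2(FPKM + 1) scale Hba-a1 differed by -0.75 (SE 0.22, adjusted p = 0.119, limma) and Hba-a2 by -0.80 (SE 0.26, adjusted p = 0.151, limma), so neither passed the threshold of 0.05 over all genes tested. The coding sequences of both genes, 426 bases without the stop codon, differ at 1 base, so reads from their coding part can hardly be assigned to one or the other. Their sum depends less on that assignment, though not free of it, since FPKM is divided by transcript length (699 and 554 bases). This sum differed by -0.77 (SE 0.24, adjusted p = 0.133, limma). It ranged from 8110 to 11358 FPKM in the control mice and from 4003 to 7203 FPKM in the Med23MSC-/- mice.

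Alas2 followed the globins with more overlap. It was at 20.2, 30.0 and 30.3 FPKM in the control mice and at 11.5, 22.6 and 17.2 FPKM in the Med23MSC-/- mice. Med23MSC-/- replicate 2 lay above the lowest control, and the difference of -0.64 (SE 0.25, adjusted p = 0.203, limma) did not pass. Slc4a1, the anion exchanger of the red cell membrane, was at 1.45, 1.65 and 2.52 FPKM in the control and at 2.01, 1.23 and 0.432 FPKM in the Med23MSC-/- mice, which overlapped (difference -0.42, SE 0.28, adjusted p = 0.435, limma). Leaving out 1 mouse moved this value to -0.13 (without Med23MSC-/- replicate 3), -0.26 (without control replicate 3) or -0.67 (without Med23MSC-/- replicate 1), and a pseudocount of 0.1 to -0.75. Tfrc, which most dividing cells use to take up iron, was at 45.4, 39.1 and 34.3 FPKM in the control mice and spanned the widest range of all 4 groups in the Med23MSC-/- mice, at 49.9, 40.7 and 25.6 FPKM. Its difference of -0.07 (SE 0.23, adjusted p = 0.884, limma) was smaller than its error. A linear model without moderation of the variance called 0 of all 13059 genes in the Med23MSC-/- set, so it tells nothing about the members in particular. In limma, 0 of the 5 members that could be tested passed in this set, against 1.57% of all genes tested (0.559% lower). At an unadjusted p under 0.05, 3 of the 5 were lower (Hba-a1, Hba-a2 and Alas2), against 5.63% of all genes. The 5 are the members that reached 1 FPKM in 3 or more of the 12 mice.

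The levels of control replicate 1, the control with low Xist, were the lowest of the 3 controls for Hba-a1, Hba-a2, Alas2 and Slc4a1. When only this mouse was set against the 3 Med23MSC-/- mice, the differences were -0.54 for Hba-a1, -0.50 for Hba-a2 and -0.27 for Alas2 (values without a test, since the control arm is 1 mouse). The median difference of the 5 members was then -0.28 in place of -0.64. Since all high-Xist mice of this set were controls, sex and genotype cannot be fully told apart, and Alas2 and Gata1 are themselves on the X chromosome.

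In Runx2+/- calvaria, 2 of the 3 mice had low alpha globin and Alas2 RNA and the third did not. Hba-a1 was at 6436, 7254 and 5701 FPKM in the WT mice and at 3179, 5969 and 1481 FPKM in the Runx2+/- mice. Runx2+/- replicate 2 lay inside the WT range, and replicate 3 had the lowest level of all 12 mice. Hba-a2 showed the same order, at 3865, 4091 and 3328 FPKM in WT and at 1881, 3737 and 912 FPKM in Runx2+/- mice. Alas2 was at 30.9, 30.8 and 26.5 FPKM in WT and at 11.9, 27.6 and 7.09 FPKM in Runx2+/- mice, with the same order as Hba-a1 among the Runx2+/- mice. Both the mean differences and their errors were larger than in the Med23MSC-/- set. The differences were -1.08 for Hba-a1 (SE 0.43, adjusted p = 0.281, limma), -1.01 for Hba-a2 (SE 0.43, adjusted p = 0.321, limma) and -1.07 for Alas2 (SE 0.39, adjusted p = 0.235, limma). The summed alpha globin level differed by -1.06 (SE 0.44, adjusted p = 0.300, limma). Without Runx2+/- replicate 2, the difference of Alas2 was -1.57 and passed (adjusted p = 0.0268, limma). Without Runx2+/- replicate 3 the differences were smaller and did not pass, at -0.66 for Alas2 (adjusted p = 0.317, limma), -0.56 for Hba-a1 and -0.50 for Hba-a2, so the size in this set rests on which of these mice is included.

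Slc4a1 and Tfrc were lower in all 3 Runx2+/- mice than in every WT mouse, as were 10.4% of all genes tested. Slc4a1 was at 2.96, 2.47 and 3.47 FPKM in WT and at 0.858, 2.18 and 0.209 FPKM in Runx2+/- mice. Its difference of -1.03 (SE 0.32, adjusted p = 0.166, limma) did not pass, and it passed without Runx2+/- replicate 2 (-1.40, adjusted p = 0.0469, limma) but was -0.70 without replicate 3 (adjusted p = 0.216, limma). With a pseudocount of 0.1 it was -1.79. The Slc4a1 level of Runx2+/- replicate 3 rested on an estimated 7.6 fragments. Tfrc fell in Runx2+/- mice: it was at 52.4, 40.8 and 43.5 FPKM in WT and at 29.0, 27.8 and 24.5 FPKM in Runx2+/- mice. The Runx2+/- mice were close to each other, with a mean of 27.1 ± 2.35 FPKM against 45.6 ± 6.08 FPKM in WT (SD, n = 3 each), a difference of -0.73 (SE 0.12, adjusted p = 0.0285, limma). Tfrc was the 1 member of 5 to pass, against 1.89% of all genes tested (1.49% lower), and all 5 had an unadjusted p under 0.05 with a lower mean, against 8.32% of all genes. The call of Tfrc was lost on leaving out WT replicate 1, WT replicate 3 or any of the 3 Runx2+/- mice (adjusted p from 0.0633 to 0.089, limma), with differences between -0.78 and -0.62. Without WT replicate 1 the set holds only low-Xist mice (adjusted p = 0.089, limma). The call was also lost without a filter on low values (adjusted p = 0.122, limma) and with all 12 mice in 1 fit (0.110, limma). It was lost without moderation of the variance as well (0.216, linear model). Under these 3 settings 5, 95 and 1 of all genes passed, against 247 in the main fit, so most calls were lost with it. The median difference of the 5 members was -0.64 in the Med23MSC-/- set and -1.03 in the Runx2+/- set, where that of all genes was 0.06 and 0.02. In the Runx2+/- set it was -0.66 without Runx2+/- replicate 3 and -1.52 without replicate 2. In whole tissue, fewer erythroid cells and less of these RNAs per cell cannot be told apart.

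**Figure D2:**
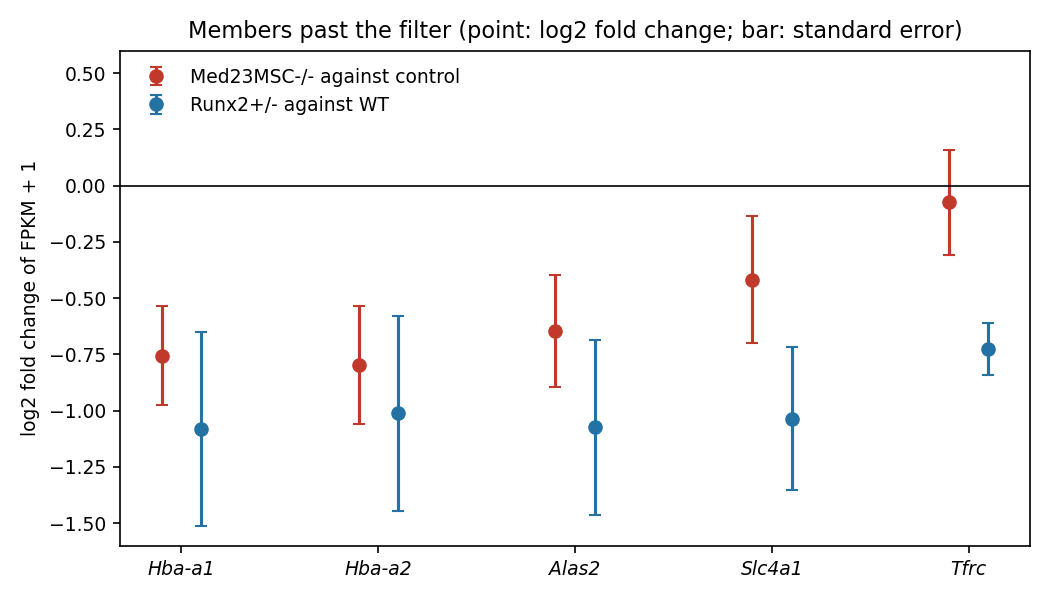
Difference between mutant and littermate mice on the log2(FPKM + 1) scale for the 5 members that passed the filter, with the standard error as bars, for the Med23MSC-/- set in red and the Runx2+/- set in blue. All differences are below 0, the errors of the globins and Alas2 are wider in the Runx2+/- set (0.39 to 0.43) than in the Med23MSC-/- set (0.22 to 0.26), and Tfrc differs by -0.07 and -0.73.

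The changes in the 2 sets were compared by an interaction contrast over all 12 mice. Of the 5 members 0 passed (limma), against 0.153% of all genes tested. Tfrc had the largest gap between the sets, 0.65 (SE 0.28), with an unadjusted p of 0.0407 and an adjusted p of 0.300 (limma), and it was the 1 member with an unadjusted p under 0.05. The sets used separate controls, whose levels were not the same: the WT mean was above the control mean for Slc4a1 (2.97 against 1.88 FPKM), Alas2 (29.4 against 26.8 FPKM), Hba-a1 (6464 against 5914 FPKM) and Tfrc (45.6 against 39.6 FPKM), and below it for Hba-a2 (3761 against 3811 FPKM). The ranges of both littermate groups overlapped for each of these, for Slc4a1 only between 2.47 and 2.52 FPKM. The mutant groups overlapped each other for every member.

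The 3 low members showed no order between the groups. Klf1 was at 0.302, 0.396 and 0.403 FPKM in control, at 0.404, 0.246 and 0.0829 FPKM in Med23MSC-/-, at 0.348, 0.144 and 0.418 FPKM in WT and at 0.222, 0.403 and 0.175 FPKM in Runx2+/- mice. Epb42 ranged from 0.124 to 0.318 FPKM in control, from 0.0904 to 0.244 FPKM in Med23MSC-/-, from 0.168 to 0.517 FPKM in WT and from 0.0835 to 0.424 FPKM in Runx2+/- mice. Gata1 was listed at 0 in control replicate 3 and Runx2+/- replicate 3 and reached 0.245 FPKM in WT replicate 3. With the filter removed, their adjusted p lay between 0.419 and 0.931 in both sets (limma). A difference in these genes was not detectable at this depth.

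Alas2 and alpha globin kept a nearly fixed proportion from mouse to mouse. The summed alpha globin level varied 4.75-fold over the 12 mice and Alas2 4.36-fold, but the Alas2 level per 1000 FPKM of alpha globin varied only 1.33-fold, from 2.36 to 3.14. This ratio was 2.75 ± 0.310 in control and 2.92 ± 0.201 in Med23MSC-/- mice (SD and n = 3 for each group, with an exact two-sided permutation p of 0.4), and 2.88 ± 0.149 in WT and 2.72 ± 0.318 in Runx2+/- mice (exact two-sided permutation p = 0.6). With 3 mice a group no p below 0.1 is possible, and the adjusted p of the 10 ratios and levels tested in this way was at least 0.333. Pearson's r of the log2(FPKM + 1) levels was 0.98 and Spearman's rho 0.97 over 12 mice (permutation p = 1e-05, the smallest that 100000 resamples can give, and 2e-05). The relation held without the 2 mice farthest from the median, Runx2+/- replicate 3 and Med23MSC-/- replicate 1 (r = 0.96), and with each group's mean taken off (r = 0.97).

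Slc4a1 followed alpha globin less closely and Tfrc hardly. For Slc4a1, r was 0.74 and rho 0.74 over 12 mice (permutation p = 0.00598 and 0.00797, both 0.0239 after adjustment over the 12 coefficients), with r = 0.82 without the same 2 mice and r = 0.54 with group means taken off. Slc4a1 varied 16.6-fold, and Med23MSC-/- replicate 1, which had the lowest alpha globin of its group, had the highest Slc4a1 of its group. Slc4a1 rested on an estimated 7.6 to 154 fragments per mouse. The fewest were in Runx2+/- replicate 3 (7.6) and Med23MSC-/- replicate 3 (17), so the low end of this range is uncertain. For Tfrc, r was 0.40 and rho 0.28 over 12 mice (permutation p = 0.203 and 0.381), with r = 0.48 without the 2 mice and r = -0.12 with group means taken off. Tfrc varied only 2.14-fold. For Klf1, Epb42 and Gata1 the r with alpha globin lay between 0.30 and 0.38, which at these few fragments is no finding. The permutations, for Alas2 as well, moved all 12 mice across the groups, so their p also covers differences between group means. With group means taken off, no p was computed. The members are measured in the same libraries, and the labels give no batch within which the relations could be computed again.

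**Figure D3:**
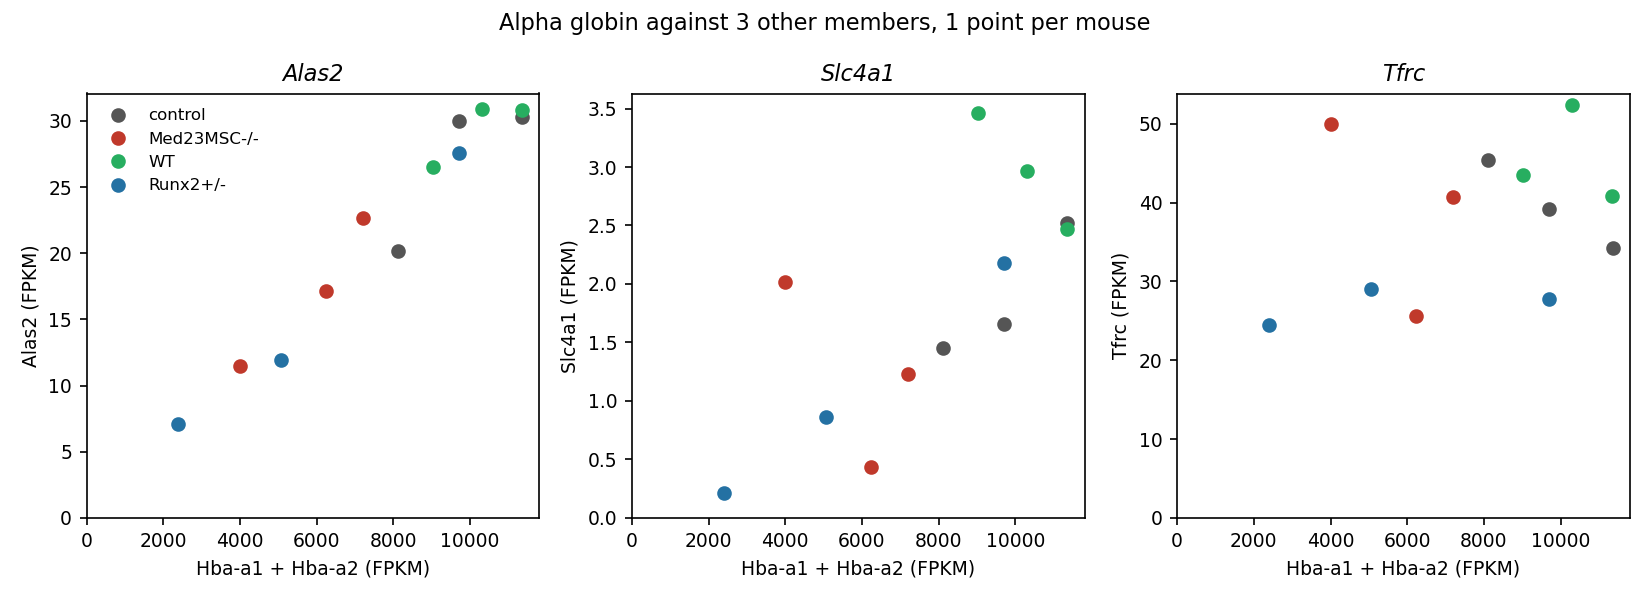
Levels of Alas2, Slc4a1 and Tfrc (vertical axes, FPKM) against the summed level of Hba-a1 and Hba-a2 (horizontal axes, FPKM), 1 point per mouse, coloured by group. The Alas2 points lie near 1 line through the origin in all 4 groups (r = 0.98), the Slc4a1 points scatter (r = 0.74), and the Tfrc points show no clear slope (r = 0.40).

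The split between the alpha globin copies and between the Alas2 transcripts was compared in the same way. Hba-a1 exceeded Hba-a2 by 1.42- to 1.77-fold in the 12 mice, with a mean ratio of 1.56 ± 0.118 in control, 1.61 ± 0.142 in Med23MSC-/-, 1.72 ± 0.0541 in WT and 1.64 ± 0.0477 in Runx2+/- mice (SD, n = 3 each). Since the copies share nearly all of their coding sequence, this ratio is uncertain. Alas2 had 2 RefSeq transcripts in the files, of 2037 and 1892 bases. The shorter made up 19.6%, 22.5% and 20.9% of the Alas2 level in control mice and 17.0%, 9.95% and 4.12% in Med23MSC-/- mice. The groups did not overlap, and the exact two-sided permutation p was 0.1, the smallest possible with 3 mice against 3. In WT mice the share was 15.8%, 10.8% and 13.0%, and in Runx2+/- mice 11.2%, 18.1% and 40.0% (exact two-sided permutation p = 0.3). The shorter transcript rested on an estimated 12 to 137 fragments per mouse, and how the authors' program divided reads between the transcripts is not given in the sources used here.

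The other genes of haem synthesis showed smaller differences than Alas2. At an unadjusted p under 0.05, 21.3% of all genes tested stood out in the Med23MSC-/- set and 15.4% in the Runx2+/- set, in either direction, which is the background for the counts of lists below. Of 15 tested, which include the housekeeping enzyme Alas1 and the enzymes from Alad to Fech, 0 passed in either set (limma, with 1 at an unadjusted p under 0.05 in each), and their median difference was 0.05 in the Med23MSC-/- set and -0.09 in the Runx2+/- set. The 2 with the highest level, Tmem14c, which carries porphyrin across the mitochondrial membrane, and Glrx5, which takes part in iron-sulphur cluster assembly, were at 133 ± 1.98 and 91.7 ± 6.68 FPKM in control and at 143 ± 13.5 and 97.7 ± 10.7 FPKM in Med23MSC-/- mice. In Runx2+/- mice they were at 131 ± 9.86 and 86.1 ± 3.39 FPKM, against 140 ± 12.8 and 92.4 ± 9.82 FPKM in WT. Their differences in either set were at most 0.10 in size. The list also holds transporters and other proteins, and the enzymes from Alad to Fech are not particular to erythroid cells. Why these genes differed less than Alas2 was not tested.

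Among 14 genes of iron uptake, storage and export, 0 passed in the Med23MSC-/- set (4 at an unadjusted p under 0.05) and 1 fell in the Runx2+/- set (5 at an unadjusted p under 0.05), with medians of -0.15 and -0.13. The share of 4 in 14 is near the 21.3% of all genes. In the Runx2+/- set the 5 in 14 stand against 15.4% of all genes, and 11 of the 14 were below 0, against 43.9% of all genes. The gene that fell was Hmox1, which breaks down haem, at 65.5 ± 4.01 FPKM in WT and 45.2 ± 2.11 FPKM in Runx2+/- mice (difference -0.53, adjusted p = 0.0285, limma). The ferritin chains had the highest levels, Ftl1 at 2545 ± 86.1 FPKM in WT and 2310 ± 73.1 FPKM in Runx2+/- mice, and Fth1 at 1341 ± 127 and 1107 ± 60.2 FPKM, without passing (adjusted p = 0.567 and 0.278, limma).

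Of 18 genes of the red cell membrane and skeleton, 9 passed the filter, with 0 called in the Med23MSC-/- set (0 at an unadjusted p under 0.05 as well) and 1 lower in the Runx2+/- set, where 6 of the 9 had an unadjusted p under 0.05, against 15.4% of all genes. These 6 count both directions, since Aqp1 among them was higher (difference 0.34). Tmod1, also among the 6, differed by -1.24 in the Runx2+/- set and by 1.01 in the Med23MSC-/- set. The medians of the skeletal muscle genes had the same directions (-4.44 and 2.87), and the part of muscle in Tmod1 was not tested. The medians of the 9 membrane genes were 0.06 in the Med23MSC-/- set and -0.38 in the Runx2+/- set. The gene that fell was Cd59a, an inhibitor of complement lysis on many cell types, at 24.8 ± 3.20 FPKM in WT and 16.2 ± 0.905 FPKM in Runx2+/- mice (difference -0.58, adjusted p = 0.0459, limma). Aqp1, a water channel that endothelium also uses, was at 106 ± 5.88 and 135 ± 14.7 FPKM, and Mpp1, a membrane scaffold protein, at 48.7 ± 5.05 and 34.5 ± 3.47 FPKM, in WT and Runx2+/- mice, and neither passed (adjusted p = 0.163 and 0.0766, limma).

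Of 12 erythroid transcription factors and cofactors other than Gata1 and Klf1, 9 passed the filter and 0 were called in either set (limma, with 2 and 0 at an unadjusted p under 0.05). Ldb1 and Lmo2, cofactors that sit in a complex with GATA1, were at 46.6 ± 1.88 and 12.6 ± 2.29 FPKM in control and at 39.5 ± 3.90 and 9.58 ± 1.76 FPKM in Med23MSC-/- mice (adjusted p = 0.208 and 0.271, limma). Of 18 genes of late erythroblasts and reticulocytes, 14 passed the filter, with medians of 0.06 in the Med23MSC-/- set and -0.11 in the Runx2+/- set. In the Med23MSC-/- set 0 were called (1 at an unadjusted p under 0.05). In the Runx2+/- set 10 of 14 were below 0, against 43.9% of all genes. There 5 had an unadjusted p under 0.05, against 15.4% of all genes, and 1 was called, as lower. That gene was Car2, a carbonic anhydrase of red cells that osteoclasts also make, at 37.7 ± 4.90 FPKM in WT and 15.3 ± 0.176 FPKM in Runx2+/- mice (difference -1.24, adjusted p = 0.00540, limma). Prdx2 and Blvrb, the most abundant of the list, were at 508 ± 33.2 and 82.5 ± 5.58 FPKM in WT and at 447 ± 34.2 and 77.6 ± 4.68 FPKM in Runx2+/- mice (adjusted p = 0.431 and 0.689, limma). The embryonic alpha-like globin Hba-x was listed at 0 in every mouse.

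**Figure D4:**
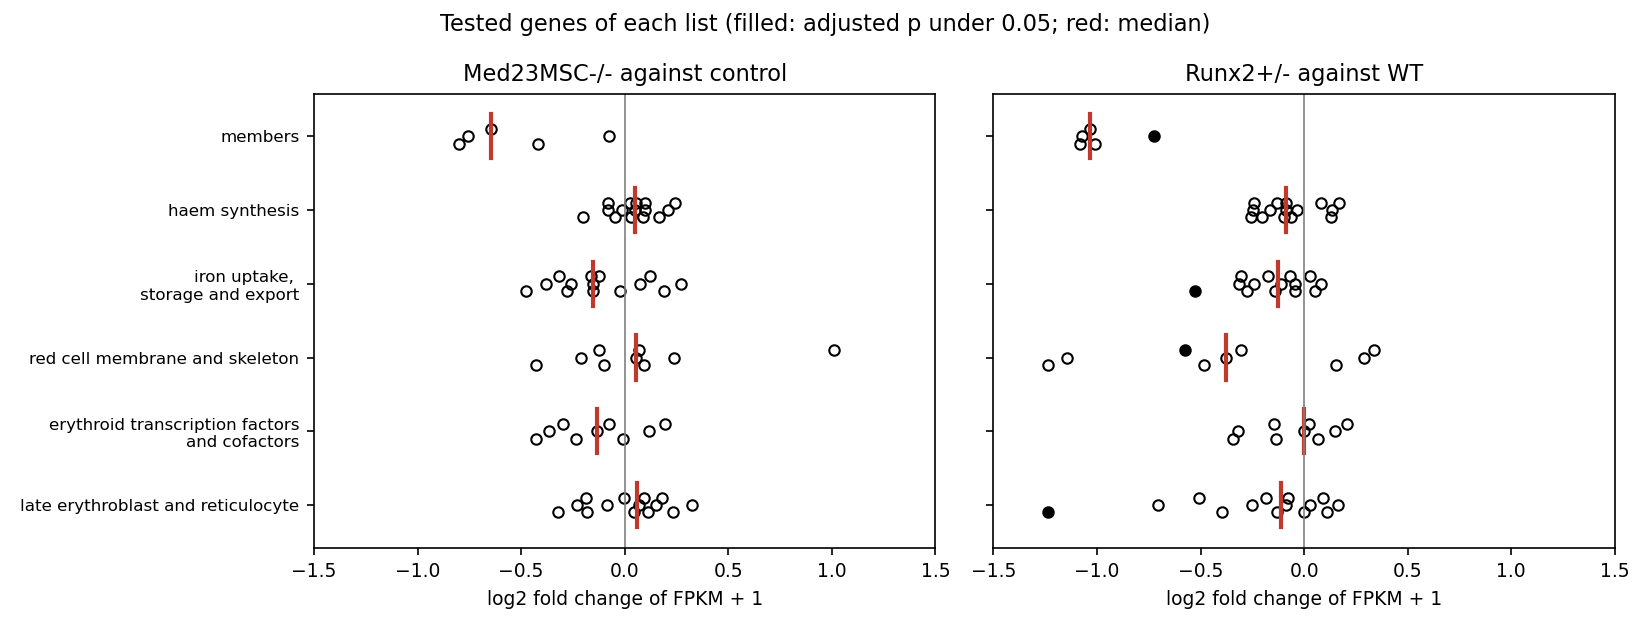
Difference on the log2(FPKM + 1) scale of each tested gene of the members and of 5 lists of related genes, for the Med23MSC-/- set on the left and the Runx2+/- set on the right, with filled points for an adjusted p under 0.05 and a red bar at the list's median. The medians of the members lie at -0.64 and -1.03, and those of the lists between -0.38 and 0.06.

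The genes whose levels were most like the members over the 12 mice included both adult beta globins. Likeness was Pearson's r with the mean of the members' standardised levels, in which the low members carry the same weight as the globins, and 9 of the 10 highest of all genes tested are named, without a test. Hbb-bs (r = 0.89, mean 5968 FPKM) and Hbb-bt (r = 0.87, mean 1546 FPKM) encode adult beta globin, and their differences were -0.64 and -0.38 in the Med23MSC-/- set (adjusted p = 0.12 and 0.346, limma) and -1.05 and -1.08 in the Runx2+/- set (adjusted p = 0.298 and 0.253, limma). Cd74 and H2-Aa (r = 0.91 and 0.91) belong to antigen presentation by MHC class II, and Stfa2l1 and Csta2 (r = 0.90 and 0.89) to the stefin family of protease inhibitors. Stfa2l1 was the 1 gene of the 10 to pass in the Med23MSC-/- set (difference -1.32, adjusted p = 0.0360, limma), and 0 of the 10 passed in the Runx2+/- set. Tbxas1, Pcyt1a and Kcne3 (r = 0.91, 0.90 and 0.88) complete the named genes. With group means taken off, the 5 highest were Vhl, which targets the hypoxia-inducible factors for degradation (r = 0.96), Aif1 (r = 0.95), Rab27a (r = 0.94), Oxct1 (r = 0.94) and Hnrnpa3 (r = 0.93), and 0 of these passed in either set. Neither beta globin was among these 5, and this ranking was not tested either.

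Markers of other cells were compared in the same way. Neutrophil genes were low in the same Runx2+/- mice as alpha globin: their summed level over 12 genes was 302, 467 and 455 FPKM in WT and 108, 387 and 74.2 FPKM in Runx2+/- mice, so that replicate 2 again lay inside the WT range. In the Med23MSC-/- set it was 177, 626 and 174 FPKM in control and 308, 147 and 70.3 FPKM in Med23MSC-/- mice, which overlapped. Of the 8 neutrophil genes that passed the filter 0 were called in either set (limma, with 0 and 4 at an unadjusted p under 0.05), and their medians were -0.29 and -1.05. S100a8 and S100a9, the most abundant, differed by -1.37 and -1.62 in the Runx2+/- set (adjusted p = 0.229 and 0.276, limma). The summed level of 9 macrophage genes ranged from 444 to 459 FPKM in WT and from 371 to 459 FPKM in Runx2+/- mice, that of 10 megakaryocyte and platelet genes from 356 to 381 and from 359 to 374 FPKM, and that of 9 B cell genes from 14.6 to 18.2 and from 12.4 to 17.2 FPKM, and 0 genes of these 3 lists were called in either set. In the Med23MSC-/- set these sums ranged from 493 to 591 and 350 to 521 FPKM, from 264 to 353 and 287 to 419 FPKM, and from 13.8 to 16.5 and 10.3 to 14.2 FPKM, in control and Med23MSC-/- mice.

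Genes of vessels and of dividing cells were also compared. Of 8 endothelial genes, Pecam1 fell in the Runx2+/- set, from 21.2 ± 0.234 to 13.9 ± 0.656 FPKM (SD, n = 3 each, difference -0.57, adjusted p = 0.0185, limma), and 0 were called in the Med23MSC-/- set, with medians of -0.26 and -0.13. The summed endothelial level was 132 to 148 FPKM in WT and 97.9 to 115 FPKM in Runx2+/- mice, and 126 to 149 FPKM in control and 126 to 142 FPKM in Med23MSC-/- mice. Of 12 proliferation genes 0 were called in either set (limma, with 6 at an unadjusted p under 0.05 in each, against 21.3% and 15.4% of all genes), with a median of 0.42 in the Med23MSC-/- set and -0.32 in the Runx2+/- set. Of the 12, 0 were below 0 in the Med23MSC-/- set and 12 in the Runx2+/- set, against 38.7% and 43.9% of all genes. The summed level of the proliferation genes was 249 to 372 FPKM in control and 418 to 471 FPKM in Med23MSC-/- mice. It was 349 to 375 FPKM in WT and 305 to 342 FPKM in Runx2+/- mice, without overlap in either set. Of 11 genes of mast cells, basophils and eosinophils, 8 passed the filter, and Tpsab1, a mast cell tryptase, rose in the Runx2+/- set, from 0.710 ± 0.445 to 16.9 ± 5.56 FPKM (difference 3.38, adjusted p = 0.00303, limma), while the median of the list was 0.22 there. In the Med23MSC-/- set 0 of the 8 were called, and 8 of 8 were above 0 with a median of 0.54, where 38.7% of all genes were below 0. Of the 8, 4 had an unadjusted p under 0.05, against 21.3% of all genes. The summed level of this list was 82.8 to 164 FPKM in control and 194 to 235 FPKM in Med23MSC-/- mice, without overlap. Of 10 skeletal muscle genes 8 fell in the Runx2+/- set and 0 were called in the Med23MSC-/- set, with medians of -4.44 and 2.87, and of 12 osteoblast genes 1, Bglap, fell in the Med23MSC-/- set (difference -1.95, adjusted p = 0.0401, limma) and 0 were called in the Runx2+/- set. In the Med23MSC-/- set 12 of 12 osteoblast genes were below 0 with a median of -0.49, against 38.7% of all genes below 0. Of the 12, 10 had an unadjusted p under 0.05, against 5.63% of all genes that were lower at this p. In 8, every Med23MSC-/- mouse was below every control, against 7.68% of all genes. The summed level of the osteoblast genes was 49904 to 52566 FPKM in control and 26028 to 33894 FPKM in Med23MSC-/- mice. The part of these cells in the levels of the members was not tested.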

How the data were processed

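The authors made TruSeq libraries from total RNA of calvaria and deposited 1 FPKM value per RefSeq transcript and mouse, in 12 files of 30411 transcripts. The unit is inferred: values are not whole numbers, and the smallest ones fall as transcripts get longer. The submitters' processing notes name Bowtie 0.12.8 and mm10, and the program that estimated the values is not given in the sources used here. Depth was estimated from what 1 fragment is worth, and no batches are labelled. Transcripts were matched to symbols by the NCBI table of GRCm38.p6 (29831 transcripts) or GENCODE M21 (184 transcripts), and 396 kept their identifier.

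Deposited FPKM values were added up per gene, giving 23715 genes. The 13059 genes that reached 1 FPKM in 3 or more of the 12 mice were compared on log2(FPKM + 1), which understates changes of low genes, by limma 3.58.1 (R 4.3.3) with a mean-variance trend and Benjamini-Hochberg adjustment over all of them. Each mutant group was fitted with its own littermates, and the sets were compared by an interaction contrast in 1 fit of 12 mice. Ratios and shares were compared by exact permutation tests, and relations over mice by permutation (100000 resamples). Other computations used Python 3.11.15 with pandas 2.3.3, numpy 2.4.6, scipy 1.17.1 and matplotlib 3.10.9. The fit was tested on simulated data. Mice are separate samples in the labels, and litters are not given.

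The members and lists were chosen with earlier results of these data known. Named genes are the members, the called genes of each list (at most 4) with the 2 most abundant, and the genes most like the members (10 over all mice, of which 1 is not reported here, and 5 with group means taken off). Of the muscle and osteoblast lists only counts and 1 gene are given. Alternatives were another pseudocount, other filters, all mice fitted together, blocking on the replicate number, other scalings, no moderation, 1 transcript per gene and each mouse left out. Low-Xist libraries alone and summed alpha globin were added after the data had been seen. Whether the replicate numbers pair the mice is not given. Correlations of same-numbered deviations were 0.18, 0.259 and 0.0527 in the Med23MSC-/- set. Those of differently numbered mice there ranged from -0.201 to 0.0297. In the Runx2+/- set they were 0.00482, -0.0474 and -0.0836 for the same number, and from -0.0648 to 0.104 otherwise. A pairing in the Med23MSC-/- set was thus not settled, and the main fit used none.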

Additional observations from a re-analysis of the deposited data

How the results depend on the processing

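For the Med23MSC-/- set, the median difference of the members on the log2 scale was -0.28 without a filter on low values, where 8 members were tested, and -0.28 with low-Xist libraries alone, and it ranged from -0.86 to -0.51 when each mouse was left out. With the replicate number as a block, 2 members passed (Hba-a1 and Hba-a2, adjusted p = 0.0483 each, limma) and 273 genes in all, against 205 without the block. In the Runx2+/- set, 0 members passed under the block (Tfrc at an adjusted p of 0.0544, limma, and 90 genes in all, against 247). There 0 members also passed without a filter, with all 12 mice in 1 fit and without moderation of the variance, and 0 to 2 passed when each mouse was left out. The 2 were Alas2 and Slc4a1, without Runx2+/- replicate 2. Tfrc passed in this set under 6 of 15 alternatives, with differences between -0.80 and -0.62. Its adjusted p lay between 0.0249 (limma) and 0.216 (linear model without moderation). In the Med23MSC-/- set the difference of Tfrc turned to 0.03 without control replicate 1 and to 0.19 without Med23MSC-/- replicate 3. The difference between the sets turned for Hba-a2 without Med23MSC-/- replicate 2 (-0.0040) and without Runx2+/- replicate 3 (-0.30), and for Hba-a1 without Runx2+/- replicate 3 (-0.19), and with each mouse left out it ranged up to 0.72 and 0.81 for these genes. The cause of these shifts was not tested.

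The number of genes called in the Med23MSC-/- set, 205 (73 lower and 132 higher), was 717 with all mice in 1 fit, 57 with 1 transcript per gene, 1 without a filter, 0 without moderation, and 0 to 35 when each mouse was left out. Scaling by median of ratios gave 87 lower and 56 higher, and scaling to the same sum without the members 67 lower and 41 higher. In the Runx2+/- set, 247 (195 lower and 52 higher), it was 95, 111, 5 and 1 under the first 4 of these, and 34 to 169 when each mouse was left out. For the interaction, 20, it was 136 under the block, 37 with the same sum, 6 without a filter, 1 without moderation and 2 to 164 when each mouse was left out. Genes below 1 FPKM rest on a few fragments, which limits what can be seen of Klf1, Epb42 and Gata1. The same holds in part for Slc4a1, which reached 1 FPKM in 9 of 12 mice.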
